A study of Mus musculus with 36 samples.

Results

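The interval from 48 h to 96 h of C2C12 differentiation was examined, when cultures that have already entered the muscle programme mature into myotubes. C2C12 is an established line of mouse myoblasts. The comparison used 6 of the series' 36 arrays, chosen by their labels: 3 arrays of cells kept for 96 h in DMEM with 2% horse serum, against 3 arrays of cells kept for 48 h in the same medium. Before differentiation the cells of both times grew in DMEM with 20% FBS, and no drug, transgene or altered genotype is named for either group. The cultures grew in separate plates and were collected at 12 times from 0 h to 144 h, in triplicate, from growths of successive passages. Replicates are therefore passages of 1 cell line. The p-values measure the spread left among all 36 arrays once the mean of each time and the level of each array chip are taken out. The 96 h and the 48 h array of each replicate number lay on the same chip, so each difference was taken within a chip. A culture at either time can hold myotubes and unfused myoblasts, and in such bulk RNA fewer cells of a type and less RNA per cell cannot be told apart.

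When serum is lowered, myoblasts leave the cell cycle, express the transcription factor myogenin, fuse, and build sarcomeres, at first largely from embryonic and neonatal isoforms. Maturation then adds adult fast and slow isoforms, calcium release units of the sarcoplasmic reticulum, and the enzymes of muscle energy supply. Cells that do not fuse can stay behind as quiescent reserve myoblasts.

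The muscle label held for both times. Acta1, the actin of the skeletal thin filament, measured 16.10, 16.11 and 16.10 at 96 h, against 16.10, 16.10 and 16.06 at 48 h, in replicates 1, 2 and 3. These and all levels below are log2 intensities after background correction and quantile normalization, on a scale where the median probe of an array lies at 7.09. Ckm, muscle creatine kinase, measured 13.39, 13.42 and 12.62 at 96 h and 13.21, 13.35 and 12.85 at 48 h. Both stood far above the median probe on each of the 6 arrays. Myh3, the embryonic myosin, was not analysed here. The arrays' median raw intensities were 208, 185 and 234 at 96 h and 217, 189 and 259 at 48 h, within the range of 179 to 307 over the 36 arrays. Of 46019 probes, 29812 exceeded their array's median on at least 3 of the 36 arrays and were tested with limma, with the chip as a block.

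At an adjusted p under 0.05, 2218 probes (7.44%) were called: 1147 (3.85% of those tested) were higher at 96 h than at 48 h, and 1071 (3.59%) were lower. The median size of these changes was 0.53 and -0.52 on the log2 scale, against a median standard error of 0.13 over all tested probes. At least 2-fold changes were found for 117 probes that rose and 133 that fell, or for 119 and 33 without replicate 1. Here and below, a fit without a replicate leaves out its arrays at the compared times and keeps its arrays of other times. The balance of the directions depended on the scaling: with each array scaled to its median in place of quantile normalization, 568 probes rose and 1494 fell. Counted once per gene by its brightest probe, 761 of 13223 genes (5.76%) rose and 629 (4.76%) fell. The gene counts below are read against these last shares, and the median difference over the 13223 genes was 0.00.

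Of the 12 genes with the largest rises, 6 were members of the lists of muscle genes described below, and of the 12 with the largest falls, 2 were members of the cell-cycle list. For each of the 12 largest rises, every 96 h array lay above every 48 h array, and for each of the 12 largest falls every 96 h array lay below. The rule that named these genes used this same contrast, so the separation is a description of them.

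**Figure D1:**
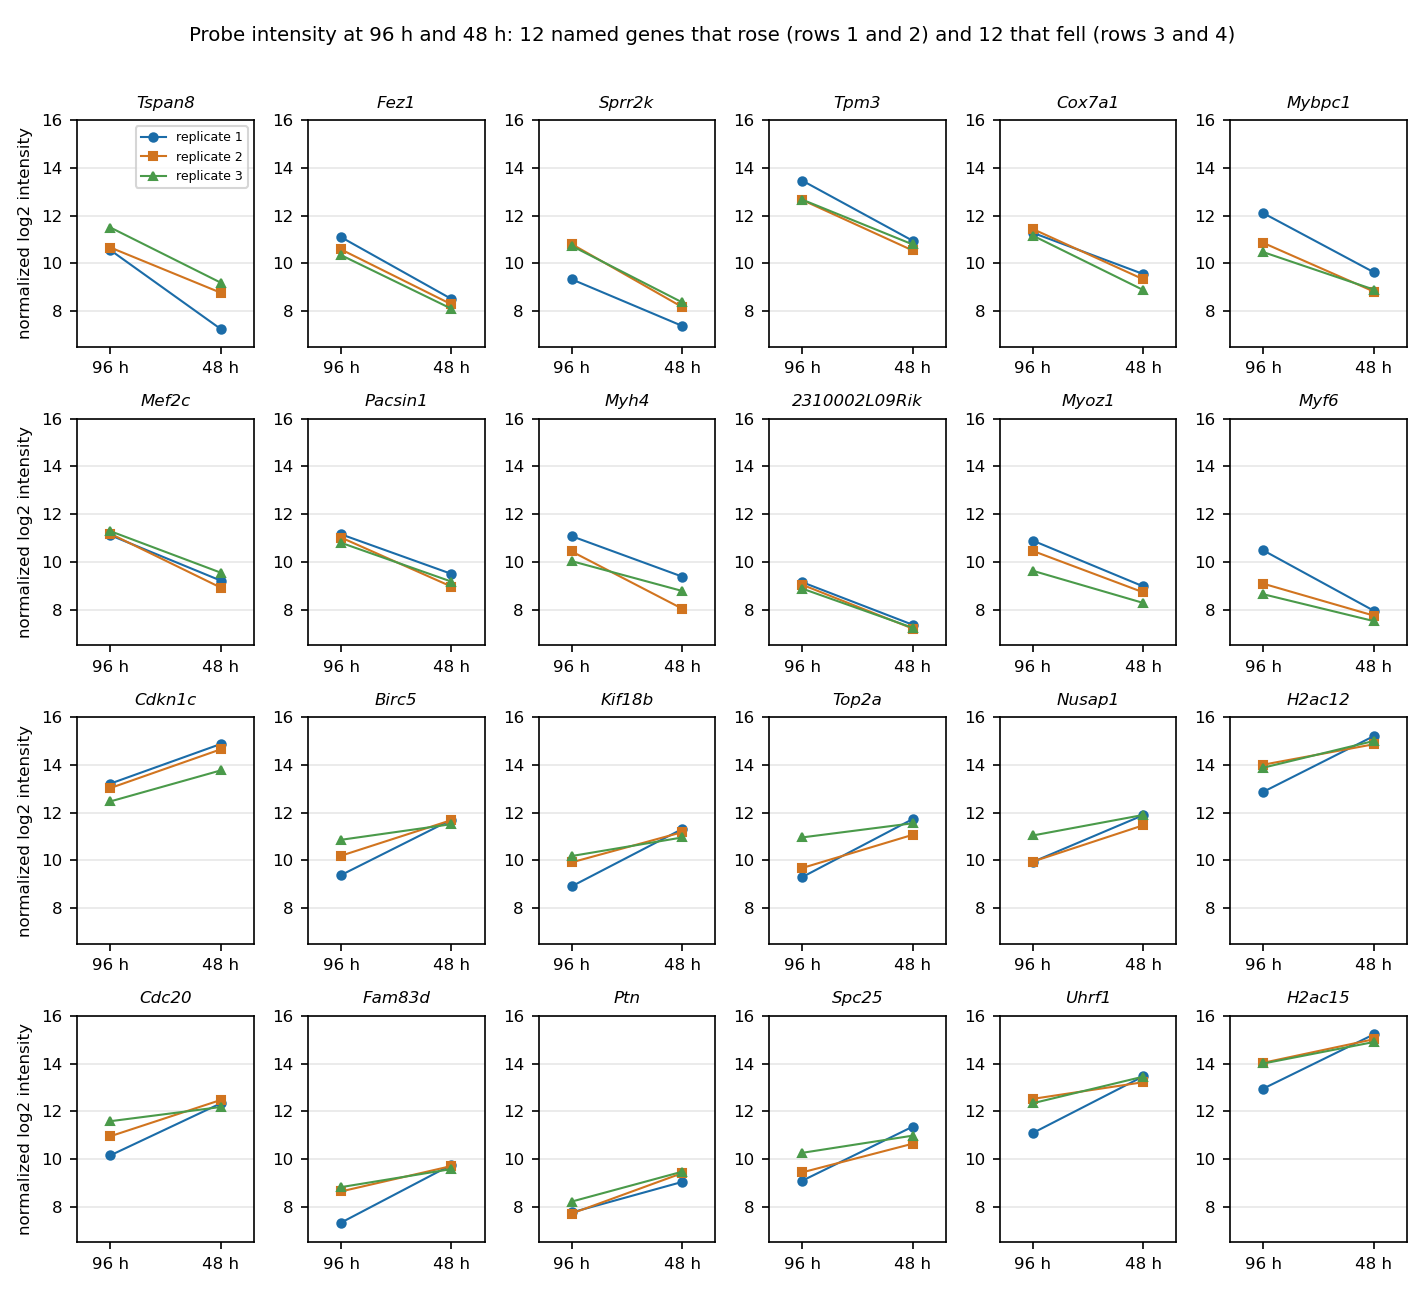
Normalized log2 intensity (y axis) of the 12 genes named for the largest rises and the 12 for the largest falls. Each point is 1 array, with 96 h left of 48 h and lines joining arrays of 1 chip. In every panel the 3 arrays at 96 h are separated from the 3 at 48 h. In several falling genes, such as Birc5, Cdc20 and Uhrf1, the 96 h points are spread more widely than the 48 h points, and in Cdkn1c they are not.

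Among the transcription factors that regulate the muscle programme, 2 were higher at 96 h, Mef2c and Myf6. At 24 h against 0 h, Mef2c had already risen by 1.45 (limma adjusted p 2.2e-06), and Myf6 had not passed (-0.45, limma adjusted p 0.18). Of 11 regulators tested, 2 rose (18.2%) and 1 fell (9.09%), with a median difference of -0.29. Mef2c, a MADS-box factor that binds the promoters of many sarcomere and enzyme genes, measured 11.11, 11.18 and 11.28 at 96 h, against 9.21, 8.92 and 9.54 at 48 h. This was a 3.91-fold rise (log2 difference 1.97 ± 0.18 (SE), n = 3 pairs, limma adjusted p 2.3e-08); 1 of the gene's 3 tested probes was called. Myf6, also known as MRF4, the myogenic factor that in mouse muscle marks late differentiation, measured 10.48, 9.08 and 8.64 at 96 h, against 7.95, 7.74 and 7.51 at 48 h. The 3.17-fold rise (1.66 ± 0.19, limma adjusted p 1.8e-06) was uneven among the pairs, at 2.53, 1.34 and 1.13.

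The factors that start the programme did not pass the test. Myog, myogenin, measured 12.35, 12.00 and 11.87 at 96 h and 12.30, 12.51 and 12.28 at 48 h (-0.29 ± 0.23, limma adjusted p 0.59). Myod1, the determination factor of myoblasts, measured 10.92, 10.49 and 10.31 at 96 h and 10.94, 10.54 and 10.49 at 48 h (-0.08 ± 0.15, limma adjusted p 0.86). Both pairs of groups overlapped. Id2, an inhibitor that sequesters the partners of myogenic factors, fell by 0.70 ± 0.15 (limma adjusted p 0.0035), but its groups overlapped, at 10.10, 10.09 and 10.22 at 96 h and 11.49, 10.20 and 10.82 at 48 h. Without replicate 1 its adjusted p was 0.30.

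Of the 13 tested genes of the adult fast or mature sarcomere, 8 rose (61.5%), and the 13 differences ran from 0.02 to 1.78 with a median of 0.68. Myh4, the fast IIb myosin heavy chain, measured 11.08, 10.44 and 10.03 at 96 h, against 9.38, 8.04 and 8.78 at 48 h. The rise was 3.44-fold (1.78 ± 0.20, limma adjusted p 9.8e-07; 1 of 2 probes called), with pair differences of 1.69, 2.40 and 1.25. Myh2, the IIa heavy chain, measured 8.68, 7.75 and 7.79 at 96 h and 7.27, 7.27 and 7.29 at 48 h, and rose 1.74-fold (0.80 ± 0.16, limma adjusted p 0.0015). Myh1, the IIx heavy chain, rose 1.97-fold (0.98 ± 0.26, limma adjusted p 0.017), with overlapping groups of 12.62, 11.60 and 11.09 at 96 h and 11.34, 10.21 and 10.83 at 48 h.

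Accessory proteins of the fast sarcomere rose with the heavy chains. Mybpc2, the fast myosin-binding protein C of the thick filament, measured 9.21, 8.32 and 8.80 at 96 h, against 7.28, 7.16 and 7.35 at 48 h (2.85-fold, 1.51 ± 0.18, limma adjusted p 3.7e-06). Myoz1, a calcineurin-binding protein of the fast-fibre Z-disc, measured 10.89, 10.46 and 9.62 at 96 h, against 8.97, 8.72 and 8.28 at 48 h (3.18-fold, 1.67 ± 0.15, limma adjusted p 2.3e-08). Myl1, the fast essential light chain, and the M-band proteins Myom1 and Myom2 rose by 0.60, 0.46 and 0.68. Titin (Ttn, 0.68, limma adjusted p 0.087), the fast troponin T gene Tnnt3 (0.52, limma adjusted p 0.25) and the fast alpha-actinin Actn3 (0.35, limma adjusted p 0.26) did not pass by their brightest probes. Of the 9 tested titin probes, 1 dimmer probe was called, with a rise of 0.96 (limma adjusted p 0.0012). Acta1 and Tnni2 lay at 80% or more of the brightest probe on all 6 arrays, where a rise can be compressed. Without replicate 1, 3 of the 13 were called (Myh4, Mybpc2 and Myoz1). Without replicate 2, and with median scaling, 4 were called.

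Slow-fibre genes moved the same way: 4 of 6 tested rose (66.7%), with a median of 0.68. Mybpc1, the slow myosin-binding protein C, measured 12.10, 10.85 and 10.46 at 96 h, against 9.62, 8.81 and 8.89 at 48 h. It rose 4.08-fold (2.03 ± 0.17, limma adjusted p 6.7e-09; 1 of 2 probes called). Myl2, the slow and cardiac regulatory light chain, measured 11.81, 12.84 and 12.32 at 96 h, against 10.78, 11.70 and 11.09 at 48 h, with pair differences of 1.03, 1.13 and 1.23 (2.19-fold, 1.13 ± 0.15, limma adjusted p 9.9e-06). Its pair differences were thus closer to one another than its levels. Tnnt1, slow troponin T, and Myoz2, the slow and cardiac counterpart of Myoz1, rose by 0.55 and 0.81. Myoz2 was not called without replicate 1, 2 or 3 (limma adjusted p 0.27, 0.072 and 0.084). With median scaling or without the chip block 2 of the 6 were called.

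No member of the embryonic and neonatal list was called: of 7 genes tested with limma, 0 passed, and 0 had unadjusted p under 0.05. The 7 were Myh8, Actc1, Tnnt2, Tnni1, Tnnc1, Myl4 and Mybph. Tnni1 and Tnnc1 were placed in this list and not in the slow list. A fit to the compared times only called 1 of the 7 higher. Their median difference was 0.10. Myh8, the perinatal myosin heavy chain, measured 14.81, 13.67 and 13.43 at 96 h and 13.85, 13.48 and 13.69 at 48 h (0.30 ± 0.21, limma adjusted p 0.53). In 4 of the 7 genes (Actc1, Tnnt2, Tnnc1 and Myl4) the probe lay at 80% or more of the brightest probe on all 6 arrays, where a difference could be compressed. Fusion genes likewise gave 0 of 5 with limma, with 1 lower at an unadjusted p under 0.05; Mymk, the fusogen myomaker, differed by 0.08 ± 0.26 (limma adjusted p 0.94).

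Tpm3, which encodes slow and cytoplasmic tropomyosins from different transcripts, was read by 5 tested probes that disagreed. The probe with the largest change measured 13.47, 12.65 and 12.67 at 96 h, against 10.94, 10.54 and 10.79 at 48 h, a 4.51-fold rise (2.17 ± 0.13, limma adjusted p 9.2e-12). A further probe rose, 1 fell, and the brightest differed by -0.28 without passing.

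Some genes for calcium release and buffering rose. Of 12 tested, 4 rose (33.3%), with a median of 0.34. Casq1, the calcium store of the fast sarcoplasmic reticulum, measured 11.04, 10.94 and 10.80 at 96 h, against 9.74, 9.43 and 9.31 at 48 h, a 2.70-fold rise (1.43 ± 0.15, limma adjusted p 5.7e-07). Pvalb, the cytosolic calcium buffer parvalbumin of fast fibres, measured 11.62, 11.52 and 10.98 at 96 h, against 10.26, 10.47 and 10.22 at 48 h, a 2.08-fold rise (1.06 ± 0.14, limma adjusted p 1.2e-05). Cacnb1, the beta subunit of the voltage sensor, and Ryr1, the release channel, rose by 0.60 and 0.62. For Ryr1, 2 of 4 probes rose and 1 fell. Casq2, the slow and cardiac calsequestrin, differed by -0.19 (limma adjusted p 0.79) and Atp2a1, the fast calcium pump, by 0.45 (limma adjusted p 0.25). Without replicate 1, 2 of the 12 were called.

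At the neuromuscular junction, 1 of 9 genes tested rose (11.1%). Chrne, the adult epsilon subunit of the acetylcholine receptor, measured 8.30, 8.37 and 7.92 at 96 h, against 7.66, 7.46 and 7.37 at 48 h (1.63-fold, 0.70 ± 0.17, limma adjusted p 0.0067), a call lost without replicate 2 (limma adjusted p 0.11). Chrng, the fetal gamma subunit that it replaces in mouse muscle after birth, differed by 0.29 ± 0.14 (limma adjusted p 0.25). The brightest probe of Ache, acetylcholinesterase, differed by -0.05, whereas a dimmer probe of the gene, below the array median on all 3 arrays at 48 h, was at least 1.67-fold higher at 96 h (limma adjusted p 4.5e-05), a bound taken against the array median.

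Several genes of muscle energy supply rose. Of 11 genes of creatine and glycolytic metabolism, 6 rose (54.5%), with a median of 0.28. Ckmt2, the mitochondrial creatine kinase of sarcomeric muscle, measured 9.04, 8.41 and 8.41 at 96 h, against 7.39, 6.86 and 6.89 at 48 h (2.97-fold, 1.57 ± 0.15, limma adjusted p 1.2e-07), with replicates 2 and 3 at 48 h below the median probe. Ckm, its cytosolic partner described above, differed by 0.00 ± 0.25. Pgam2, the muscle phosphoglycerate mutase, measured 14.01, 13.76 and 13.53 at 96 h, against 13.23, 13.02 and 12.66 at 48 h (1.73-fold, 0.79 ± 0.21, limma adjusted p 0.014). Its pair differences were 0.79, 0.73 and 0.87, and it was not called without replicate 1, 2 or 3 (limma adjusted p 0.12, 0.051 and 0.076).

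Ampd1, the muscle AMP deaminase, rose by 1.32 ± 0.16, Pygm, the muscle glycogen phosphorylase, by 0.77 ± 0.18, Pfkm, the muscle phosphofructokinase, by 0.68 ± 0.07, and Aldoa, aldolase A, by 0.28 ± 0.07 (limma adjusted p 2.5e-06, 0.0058, 3.6e-07 and 0.011). Without the chip block, or without replicate 2, 3 of the 11 were called.

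Among respiratory-chain genes, the 2 of 8 listed genes that rose (25.0%) were both muscle forms of cytochrome c oxidase subunits. Cox7a1 measured 11.28, 11.44 and 11.16 at 96 h, against 9.55, 9.33 and 8.88 at 48 h, a 4.11-fold rise (2.04 ± 0.17, limma adjusted p 5.7e-09). Cox8b measured 13.15, 13.31 and 13.00 at 96 h, against 12.10, 12.22 and 11.96 at 48 h, with pair differences of 1.05, 1.09 and 1.04 (2.09-fold, 1.06 ± 0.22, limma adjusted p 0.0023). Cox6a2, another muscle form, differed by 0.89 ± 0.30 and did not pass (limma adjusted p 0.068). Taken by family, 3 of 16 oxidase subunits rose and 1 fell: Cox8a, the subunit expressed in most tissues whose muscle counterpart is Cox8b, fell by 0.17 (limma adjusted p 0.034), a call lost without replicate 1. Of 29 complex I subunits 1 rose, and of 16 ATP synthase subunits 0 were called with limma, with 1 higher at an unadjusted p under 0.05.

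**Figure D2:**
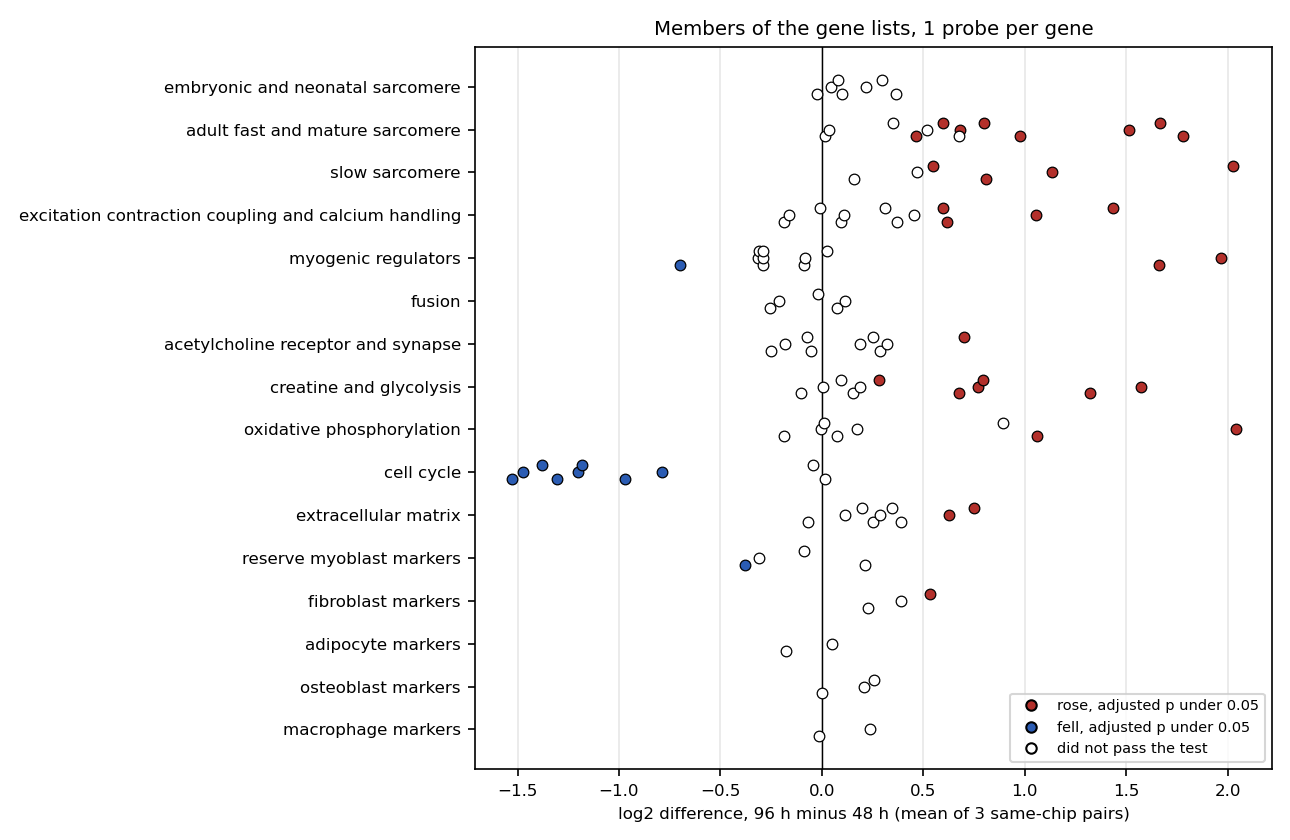
Log2 difference between 96 h and 48 h (x axis) for the tested members of each gene list, 1 point a gene by its brightest probe. Red points rose, blue points fell and white points did not pass limma's test at an adjusted p of 0.05. Adult fast, slow and creatine or glycolysis genes extend to the right, and 8 of 10 cell-cycle genes lie to the left.

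To show the DNA in front of genes that rose, the promoters of 3 of them are printed here, from 250 bases before to 50 after the start of transcription, from RefSeq on build GRCm38.p6. They were picked after the values were known, because each holds 1 E-box of the form CAGCTG, which myogenic basic helix-loop-helix factors can bind, and 1 MEF2 site. Capitals mark both motifs, searched on both strands. Myh4 lies at chr11:67237562-67237861 on the plus strand, Pgam2 at chr11:5803747-5804046 on the minus strand, and Myoz2 at chr3:123034938-123035237 on the minus strand.
Myh4: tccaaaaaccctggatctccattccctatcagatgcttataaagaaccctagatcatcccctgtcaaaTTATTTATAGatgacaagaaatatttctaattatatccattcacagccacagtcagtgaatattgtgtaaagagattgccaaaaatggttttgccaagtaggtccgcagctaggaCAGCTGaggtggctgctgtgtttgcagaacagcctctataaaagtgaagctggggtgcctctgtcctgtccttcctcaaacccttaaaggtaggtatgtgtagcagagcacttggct
Pgam2: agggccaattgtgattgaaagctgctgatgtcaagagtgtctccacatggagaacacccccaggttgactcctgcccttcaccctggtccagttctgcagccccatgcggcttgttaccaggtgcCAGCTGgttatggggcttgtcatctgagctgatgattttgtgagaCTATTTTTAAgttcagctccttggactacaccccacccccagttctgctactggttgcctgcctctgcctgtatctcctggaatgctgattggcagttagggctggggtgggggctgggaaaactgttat
Myoz2: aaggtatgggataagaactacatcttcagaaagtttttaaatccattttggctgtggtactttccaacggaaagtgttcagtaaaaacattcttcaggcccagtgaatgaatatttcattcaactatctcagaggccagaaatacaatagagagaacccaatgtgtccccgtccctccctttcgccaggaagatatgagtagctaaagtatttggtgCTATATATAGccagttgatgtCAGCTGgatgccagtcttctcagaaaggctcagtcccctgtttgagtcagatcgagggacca
CAGCTG stood in 21.0% of 876 promoters of genes that rose, in 12.9% of 697 promoters of genes that fell, and in 16.2% of 13536 promoters of all tested genes. The MEF2 site stood in 2.85%, 1.15% and 2.08% of the same promoters. Of all 32851 promoters of the RefSeq table, 16.3% held CAGCTG and 3.19% the MEF2 site. These shares describe letters in a window and were given no test.

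Several of the largest rises belonged to genes whose known roles lie outside the contractile apparatus. Tspan8, a tetraspanin of the cell membrane, had the largest named rise: it measured 10.55, 10.66 and 11.50 at 96 h, against 7.24, 8.76 and 9.18 at 48 h (5.69-fold, 2.51 ± 0.20, limma adjusted p 5.7e-09). Fez1, an adaptor for kinesin transport that is best known from neurons, measured 11.09, 10.58 and 10.34 at 96 h, against 8.50, 8.28 and 8.09 at 48 h (5.21-fold, 2.38 ± 0.14, limma adjusted p 9.2e-12; both probes called). Sprr2k, of the small proline-rich family of the skin's cornified envelope, measured 9.33, 10.80 and 10.73 at 96 h, against 7.37, 8.17 and 8.36 at 48 h (4.99-fold, 2.32 ± 0.16, limma adjusted p 4.9e-10). In each of these genes the lowest 96 h array stood clear of the highest 48 h array.

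Pacsin1, a membrane-bending protein of endocytosis, measured 11.15, 11.02 and 10.80 at 96 h, against 9.49, 8.96 and 9.17 at 48 h (3.44-fold, 1.78 ± 0.12, limma adjusted p 1.4e-10; 2 of 3 probes called). The gene 2310002L09Rik measured 9.14, 9.04 and 8.88 at 96 h, against 7.36, 7.20 and 7.23 at 48 h (3.37-fold, 1.75 ± 0.15, limma adjusted p 6.7e-09; both probes called). In both genes the 3 arrays of each time lay close together. All 12 of the largest rises were called in each fit that left out 1 replicate. They had been picked by the contrast that holds all 3 replicates, so these fits reuse values that chose them.

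Most genes of the cell-cycle list fell, among them Cdkn1c, an inhibitor of the cycle that is described below. Of 10 tested cell-cycle genes, 8 fell (80.0%, against 4.76% of all genes), with a median difference of -1.19. Cdk1, the kinase that drives entry into mitosis, measured 9.91, 10.87 and 11.39 at 96 h, against 12.06, 12.05 and 12.20 at 48 h (2.60-fold lower, -1.38 ± 0.19, limma adjusted p 2.7e-05). Top2a, the topoisomerase that untangles replicated DNA, measured 9.30, 9.68 and 10.96 at 96 h, against 11.73, 11.07 and 11.56 at 48 h (2.77-fold lower, -1.47 ± 0.29, limma adjusted p 0.0013). In both genes the 96 h level was lowest in replicate 1 and highest in replicate 3, and the 48 h arrays lay closer together for Cdk1 than for Top2a.

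Aurkb, the kinase of the chromosomal passenger complex, fell by 1.31 ± 0.24, Mcm5 and Mcm2, subunits of the replicative helicase, by 1.20 and 0.97, Ccna2, cyclin A2, by 1.18, and Ccnd1, cyclin D1, by 0.79. Neither Bub1, a spindle checkpoint kinase (-0.05), nor Cdkn1a, the CDK inhibitor p21 (0.01, near the top of the scale on all 6 arrays), passed.

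Cdkn1c differed from the others in role and in course. It encodes the CDK inhibitor p57, which holds cells out of the cycle, and it had the largest named fall: it measured 13.22, 13.04 and 12.47 at 96 h, against 14.88, 14.66 and 13.78 at 48 h (2.89-fold lower, -1.53 ± 0.21, limma adjusted p 2.5e-05). The pair differences of -1.66, -1.62 and -1.30 were more even than those of the genes that drive division. Cells at 24 h had levels of 14.64, 14.92 and 14.54, against 10.95, 10.90 and 11.03 at 0 h, a rise of 3.72 in the first day (limma adjusted p 1.8e-12). At 144 h the levels were 12.03, 12.32 and 12.49, below those at 48 h in each replicate and above those at 0 h.

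Birc5, or survivin, of the chromosomal passenger complex, measured 9.38, 10.20 and 10.86 at 96 h, against 11.71, 11.69 and 11.52 at 48 h (2.81-fold lower, -1.49 ± 0.25, limma adjusted p 0.00021; 3 of 3 probes called). Cdc20, the activator of the anaphase-promoting complex, measured 10.15, 10.95 and 11.58 at 96 h, against 12.33, 12.48 and 12.18 at 48 h (2.70-fold lower, -1.43 ± 0.24, limma adjusted p 0.00017; 3 of 3 probes called). The kinesin Kif18b, the spindle proteins Nusap1 and Fam83d, the kinetochore subunit Spc25 and Uhrf1, which reads newly replicated methylated DNA, fell by 1.48, 1.45, 1.42, 1.40 and 1.40. Ptn, the secreted growth factor pleiotrophin, is not a cell-cycle gene: it measured 7.76, 7.71 and 8.21 at 96 h, against 9.04, 9.40 and 9.46 at 48 h (2.65-fold lower, -1.41 ± 0.16, limma adjusted p 8.5e-07), after it had already fallen by 1.46 between 24 h and 48 h.

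Replicate 1 carried the largest falls. The median pair difference over the 8 cell-cycle genes and the 2 others of that list was -1.83 in replicate 1, -0.67 in replicate 2 and -0.65 in replicate 3, and each of the 8 called genes was lowest against its pair in replicate 1. Over the 12 named falls the medians were -2.30, -1.33 and -0.82, whereas over the 12 named rises they were 1.94, 2.08 and 1.69. Without replicate 1, Cdk1 (-0.99, limma adjusted p 0.006) and the inhibitor Cdkn1c (-1.46) were the 2 cell-cycle genes still called, and the list's median was -0.74. Of the 12 named falls, 8 were called without replicate 1; Top2a, H2ac12, Spc25 and H2ac15 were not (limma adjusted p 0.12, 0.083, 0.055 and 0.087). All 12 were called without replicate 2 or without replicate 3. These falls had been picked with all replicates in the contrast, so such fits reuse values that chose them.

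Families of replication and mitosis that were named after the values were known followed the list. Of the helicase subunits Mcm2 to Mcm7, 5 of 5 tested fell (median -0.97), and 2 of these were called without replicate 1. All 7 tested cell division cycle associated genes fell (median -1.23; 4 without replicate 1), from -1.33 for Cdca8, a passenger complex subunit, to -0.53 for Cdca4. Of 15 centromere protein genes 9 fell (3 without replicate 1) and 1, Cenpb, rose by 0.34. Of 25 kinesins, 5 fell (2 without replicate 1), and these were mitotic motors (Kif18b, Kif22, Kif23, Kif2c and Kif4), while the family's median was 0.05.

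Promoters of 3 falling genes are printed to show their cell-cycle elements, picked after the values were known. Capitals mark TTTGAA, the core of the cell-cycle homology region that DREAM complexes bind, and CCAAT, the site of NF-Y, each searched on both strands, so that TTCAAA and ATTGG are the same motifs on the other strand. The windows are from RefSeq, build GRCm38.p6, as above, all on the minus strand: Cdk1 at chr10:69352863-69353162, Cdc20 at chr4:118437294-118437593 and Top2a at chr11:99024140-99024439.
Cdk1: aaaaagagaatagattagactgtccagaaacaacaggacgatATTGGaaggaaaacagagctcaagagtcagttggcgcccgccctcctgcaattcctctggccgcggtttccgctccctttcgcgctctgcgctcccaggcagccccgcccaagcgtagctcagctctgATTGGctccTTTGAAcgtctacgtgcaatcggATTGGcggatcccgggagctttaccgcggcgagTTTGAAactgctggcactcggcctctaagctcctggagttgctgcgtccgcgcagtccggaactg
Cdc20: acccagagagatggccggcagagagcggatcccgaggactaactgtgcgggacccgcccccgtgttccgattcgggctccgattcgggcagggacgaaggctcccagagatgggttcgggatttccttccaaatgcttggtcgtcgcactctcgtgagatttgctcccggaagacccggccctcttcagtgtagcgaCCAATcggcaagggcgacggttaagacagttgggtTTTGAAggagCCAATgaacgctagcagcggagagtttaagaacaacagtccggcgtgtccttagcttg
Top2a: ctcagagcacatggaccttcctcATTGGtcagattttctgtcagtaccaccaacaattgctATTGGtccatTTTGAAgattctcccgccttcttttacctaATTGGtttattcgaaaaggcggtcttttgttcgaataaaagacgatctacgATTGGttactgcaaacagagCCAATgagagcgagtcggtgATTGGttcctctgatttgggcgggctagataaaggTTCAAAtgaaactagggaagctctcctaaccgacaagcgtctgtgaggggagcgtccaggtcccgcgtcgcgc
The Cdk1 window holds 2 TTTGAA and 3 CCAAT motifs, that of Cdc20 1 and 2, and that of Top2a 2 and 6. CCAAT stood in 48.5% of the 697 promoters of genes that fell, in 36.8% of the 876 of genes that rose and in 37.3% of the 13536 of all tested genes. TTTGAA stood in 17.9%, 12.0% and 13.3% of the same promoters, and in 17.9% of all 32851 promoters of the RefSeq table. As above, these shares were given no test.

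Histone genes did not move together. Of 12 genes for H2A in the clusters, 7 fell and 2 rose (median -0.76). H2ac12 measured 12.88, 14.02 and 13.89 at 96 h, against 15.22, 14.87 and 15.01 at 48 h (2.71-fold lower, -1.44 ± 0.27, limma adjusted p 0.00065), and H2ac15 measured 12.96, 14.04 and 14.01 at 96 h, against 15.23, 15.02 and 14.91 at 48 h. The 2 that rose, H2ac18 and H2ac19, differed by 0.84 and 0.80 and both lie on chromosome 3. The levels of the falling genes were again lowest in replicate 1 at 96 h, and without replicate 1 2 of the 7 were called.

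Genes for H2B went the other way. Of 11 tested, 9 rose (median 0.79), all 9 on chromosome 13. H2bc4 measured 14.12, 13.90 and 14.20 at 96 h, against 13.29, 13.07 and 13.19 at 48 h (1.85-fold, 0.89 ± 0.12, limma adjusted p 2e-05). The family's median pair difference was 0.70, 0.67 and 0.93 in replicates 1, 2 and 3, so the rise was not carried by replicate 1. The remaining genes, H2bc21 (-0.20) and H2bc1 (-0.15), did not pass. Without replicate 1, 7 were called, and median scaling called 8 (median 0.69). The copies within a histone family are nearly identical in sequence, so which copy a probe reads is uncertain, and the 9 probes may share targets. Whether the H2A and H2B probe signals follow the total levels of histone transcripts was not tested.

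**Figure D3:**
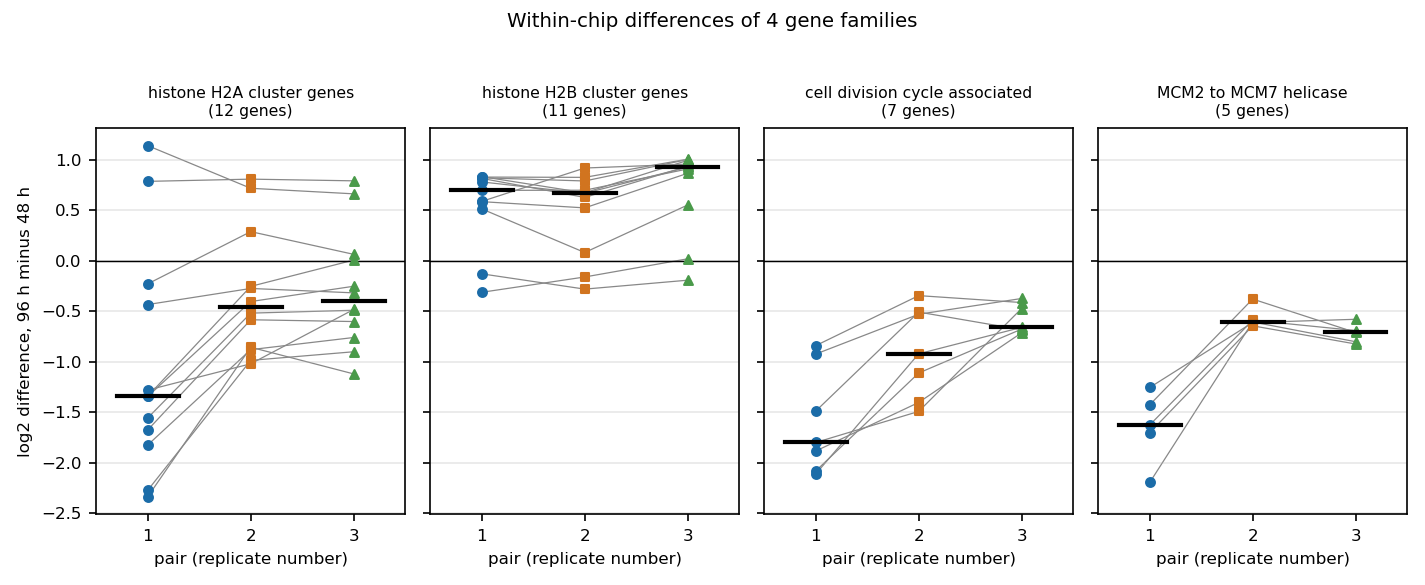
Log2 difference between 96 h and 48 h (y axis) in each of the 3 same-chip pairs for histone H2A (12 genes), histone H2B (11), cell division cycle associated (7) and Mcm2 to Mcm7 (5 tested) genes. Points are genes and bars are medians of a pair. The H2B medians are 0.70, 0.67 and 0.93 in pairs 1, 2 and 3, with 2, 2 and 1 of the 11 genes below 0, while the medians of the other families are lowest in pair 1.

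Few genes on the lists of extracellular matrix and of other cell types passed the test. At an unadjusted limma p under 0.05, 4 of 9 matrix genes and 3 of 3 fibroblast markers were higher, and 0 were lower. Of 9 extracellular matrix genes 2 rose: Fn1, fibronectin, by 0.75 ± 0.15 (13.42, 13.54 and 13.83 at 96 h, against 12.28, 12.84 and 13.42 at 48 h), and Tnc, tenascin C, by 0.63 ± 0.14, with pair differences of 0.02, 1.24 and 0.63. Both calls were lost without the chip block, that of Fn1 also without replicate 1 and that of Tnc without replicate 2. Of 3 fibroblast markers, Dcn rose by 0.54 ± 0.16 (limma adjusted p 0.035; pair differences 0.99, -0.02 and 0.63), and the 3 markers summed to between 7369 and 9071 linear units at 96 h and between 4940 and 7011 at 48 h. Dcn was not called without replicate 1 or 3, or with median scaling. Whether fibroblast-like cells had a part in the rise of matrix genes was not tested.

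Of 4 reserve myoblast markers, Sdc4, a syndecan of satellite cells, fell by 0.38 ± 0.09 (limma adjusted p 0.0047), a call lost without replicate 1 or 3. No adipocyte, osteoblast or macrophage marker was called with limma, of 2, 3 and 2 tested, and 0 had an unadjusted p under 0.05. Their summed levels, at 296 to 309, 510 to 589 and 235 to 268 linear units at 96 h and 308 to 321, 480 to 505 and 208 to 241 at 48 h, were near those of median probes.

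Agreement among the pairs was measured for all called probes. Of the 2218 called, 2182 (98.4%) moved the same way in the 3 pairs, which the rule of calling favours, as did 39.4% of all tested probes. Probes were also called on 2 replicates and read in the one left out. Of probes called higher without replicate 1, 2 or 3, 96.0%, 92.8% and 94.8% were higher in the pair left out, and of those called lower, 93.8%, 90.9% and 94.6% were lower. Over all tested probes, between 48.5% and 51.4% had the matching direction.

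The same probes were read at other times. At 144 h against 24 h, 791 of the 1147 rising probes (69.0%) were higher and 12 were lower, where 7.66% of all tested probes were higher. Of the 1071 falling probes, 820 (76.6%) were lower and 3 were higher, where 8.70% of all tested were lower. The 144 h arrays lie on the same chips as the 96 h and 48 h arrays, which enter this estimate through the chip terms. In a fit of the 144 h and 24 h arrays alone, 760 of the 1147 (66.3%) were higher, where 7.51% of all tested were, and 753 of the 1071 (70.3%) were lower, where 7.21% of all tested were. Myl2 differed by 5.08 and Tspan8 by 4.64 at 144 h against 24 h.

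In the course from 0 h, the 1147 rising probes had a median change of 0.02 after 24 h and 0.02 after 48 h, then of 0.53 after 96 h and 0.61 after 144 h. The 1071 falling probes had medians of -0.11, 0.02, -0.52 and -0.65 at the same times. For both sets the median at 48 h was close to its 0 h level. The probes were picked by their difference between 48 h and 96 h, so their medians at those times are set in part by that choice. At 24 h against 0 h, 246 of the rising probes were higher (21.4%, against 7.17% of all tested) and 202 were lower (17.6%, against 7.14%). Over all tested probes median scaling turned that comparison's 2139 higher and 2129 lower calls into 1262 and 2717.

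The course of single genes differed from these medians in part. Of the 12 named rises, Tspan8, Fez1, Tpm3, Cox7a1, Mybpc1, Pacsin1, Myh4 and Myoz1 had already risen at 48 h against 24 h. Those rises were 1.17, 0.90, 1.17, 0.77, 0.82, 1.54, 1.13 and 0.88, at limma adjusted p values of 0.0084 or lower. Sprr2k, Mef2c, 2310002L09Rik and Myf6 were not called in that step (limma adjusted p 0.96, 0.053, 0.26 and 0.31). For Cdk1, the levels were 12.30, 12.44 and 12.38 at 0 h, then 11.67, 11.88 and 11.73 after 24 h and 12.06, 12.05 and 12.20 after 48 h. By 96 h they were 9.91, 10.87 and 11.39, and by 144 h 9.25, 10.46 and 10.50. Its levels were thus lower at 24 h than at 0 h, and at 144 h than at 96 h, in each replicate. Myf6 measured 7.77, 7.66 and 7.71 at 0 h and 7.95, 7.74 and 7.51 after 48 h. By 96 h its levels were 10.48, 9.08 and 8.64, and by 144 h 10.47, 9.97 and 9.58. Pacsin1 climbed in more steps, with 6.86, 6.72 and 6.71 at 0 h, then 7.81, 7.39 and 7.58 after 24 h and 9.49, 8.96 and 9.17 after 48 h, before the 96 h levels given above. By 144 h it measured 11.41, 11.42 and 11.24. At 96 h replicate 1 had the lowest Cdk1 and the highest Myf6 level of the 3.

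**Figure D4:**
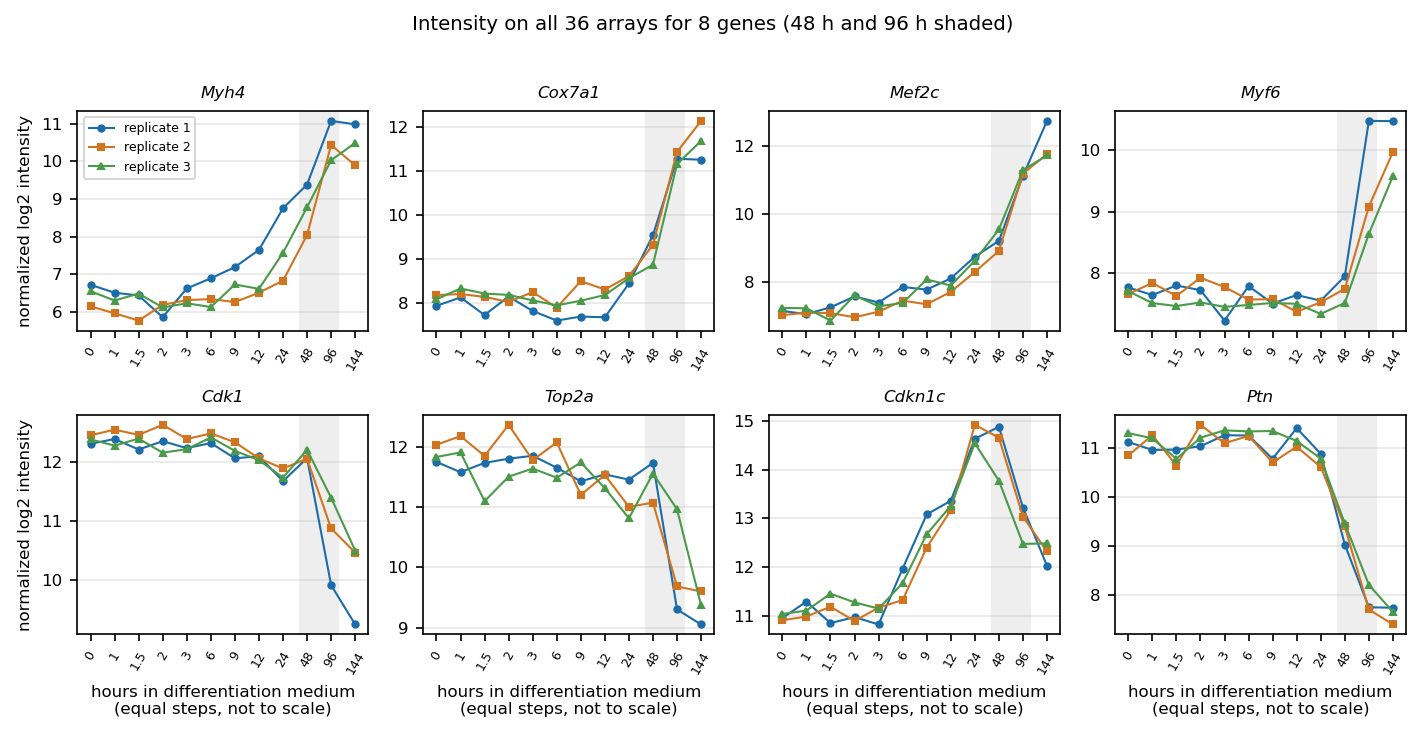
Normalized log2 intensity (y axis) of Myh4, Cox7a1, Mef2c, Myf6, Cdk1, Top2a, Cdkn1c and Ptn on all 36 arrays, by hours of differentiation (x axis, times in equal steps and not to scale), with lines joining the arrays of a replicate number and 48 h and 96 h shaded. Cdk1 and Top2a are lower at 96 h than at 48 h in each replicate, and Cdkn1c is highest at 24 h and 48 h.

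The steps before and after the interval were compared with it. Between 24 h and 48 h, a step of 24 h, 1621 probes were called (5.44%). Between 96 h and 144 h, a step of 48 h like the interval itself, 219 were called (0.735%), 104 higher and 115 lower; median scaling gave 149 and 28. The change from 48 h to 96 h differed from that of the step before for 1093 probes (3.67%), 570 with a higher and 523 with a lower value, or 309 and 539 with median scaling. It differed from that of the step after for 51 probes (0.171%), 48 of them with a more positive change from 48 h to 96 h. Both comparisons share arrays with the interval: the 48 h arrays in the first and the 96 h arrays in the second.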

How the data were processed

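Intensities were measured on 36 Illumina Mouse WG-6 v1.1 arrays of C2C12 RNA (Trizol extracts, biotin-labelled cRNA from the TotalPrep kit, per the labels). In the table of raw values, deposited by the authors, each probe has a linear intensity between 91.5 and 72391, and no sign of background subtraction was seen. The second deposited table has log2 values between 8.33 and 16.2, normalized by the authors with a method not given in the sources used here. The deposited values carry no bead counts, so the number of arrays limits the precision.

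The raw intensities were background-corrected (normexp, offset 50), taken to log2 and quantile-normalized. A probe was tested if it exceeded its array's median on at least 3 of the 36 arrays, which removed 16207 of 46019. limma 3.58.1 in R 4.3.3 was fitted to all 36 arrays with 1 mean per time (12 times) and the chip (6 chips of 6 arrays) as a block, with 19 residual degrees of freedom and an intensity trend, and p-values were adjusted by Benjamini-Hochberg at 0.05. Tables and figures used Python 3.11.15, pandas 2.3.3 and matplotlib 3.10.9. The fit was tested on simulated data first.

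Replicate numbers pair the samples: the 96 h and 48 h arrays of a number share a chip, and their deviations from the time means correlated at 0.35, 0.48 and 0.32. Probes were named through the value table, whose 44505 rows each equalled exactly 1 normalized row across the 36 arrays to 5 decimals. GEO's platform annotation then gave 1 gene for 28471 probes, several for 10 and none for 17538, with symbols updated through RefSeq (GRCm38.p6). Lists and families use the brightest probe of a gene. The named genes are the 12 largest rises and 12 largest falls among called probes that moved the same way in the 3 pairs and exceeded the array median on all 6 arrays, by the probe with the largest change, and list members. The comparison, its lists and its rule were chosen with earlier results of these data known. The families and the promoters shown were picked after their values were seen, and support nothing. Alternatives varied the normalization, background, filter, trend, block, times fitted and replicates.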

Additional observations from a re-analysis of the deposited data

Results flagged for a closer look

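For 9 of the 12 genes with the largest rises, the change from 48 h to 96 h exceeded the change from 96 h to 144 h at an adjusted p under 0.05 in the limma test of the difference itself. The difference between the steps, on the log2 scale, was 2.40 for Sprr2k, 1.84 for Myh4, 1.64 for Cox7a1, 1.42 for each of Fez1, Mybpc1, Pacsin1 and 2310002L09Rik, 1.36 for Myoz1 and 1.28 for Tpm3. The genes had been picked for their rise from 48 h to 96 h, and the steps share the 96 h arrays. Fitted to the compared times alone, the same test called 0 of 29812 probes with limma, with 1952 at an unadjusted p under 0.05, and with median scaling it called 6.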

How the results depend on the processing

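The 2218 calls at 96 h against 48 h became 2065 (1054 higher, 1011 lower) with the replicate number as the block in place of the chip, and 1022 with no replicate block, all of which were among the 2218. Leaving out the arrays of 1 replicate at the compared times gave 856 to 1657 calls, with 856 without replicate 1. With no replicate block, the calls were 910 at 48 h against 24 h, 36 at 144 h against 96 h, 2683 at 24 h against 0 h, 366 for the difference from the step before and 7 for that from the step after. Fitting the compared times only gave 2741 at 48 h against 24 h, 75 at 144 h against 96 h and 0 for the difference from the step after. For that difference the authors' normalized table gave 180, no background correction 100 and median scaling 6, and at 144 h against 96 h the authors' table gave 377. Leaving out 1 replicate gave 494 to 959 at 48 h against 24 h, 92 to 247 at 144 h against 96 h, 3255 to 3647 at 144 h against 24 h, 2188 to 3337 at 24 h against 0 h, 148 to 772 for the difference from the step before and 27 to 52 for that from the step after. Fits without a replicate hold fewer arrays; otherwise the cause was not tested. For 56 genes followed through the alternatives, 647 of 722 values stayed on the same side of the threshold with the same direction, 75 no longer passed and 0 reversed. Of the 75, 23 were without replicate 1. Each of the 56 was read by a probe among the 2218 calls, so a call could be kept, lost or reversed but not gained. With 3 arrays a group the median standard error of a difference was 0.13 on the log2 scale, and differences of the brightest probes may be compressed.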

Other observations

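The families described here were picked after their values were seen. Of 9 tested SR splicing factors, which bind exons and recruit the spliceosome, 4 fell at an adjusted p under 0.05. Srsf3 measured 9.48, 9.24 and 9.69 at 96 h, against 10.43, 10.20 and 10.29 at 48 h (-0.83 ± 0.11, limma adjusted p 1.8e-05), and Srsf1, Srsf2 and Srsf9 fell by 0.74, 0.63 and 0.30. Of 12 tested proteins of the small nuclear ribonucleoproteins, 6 fell and 1 rose. Snrpa1, of the U2 particle, measured 10.76, 11.23 and 11.31 at 96 h, against 11.95, 11.84 and 11.80 at 48 h (-0.77 ± 0.11, limma adjusted p 3.3e-05), while Snrpn, best known from neurons, rose by 0.46. Of 14 nucleoporins 5 fell, from -0.66 for Nup37 to -0.41 for Nup133. Without replicate 1, 2 SR factors, 4 ribonucleoprotein genes and 4 nucleoporins were called lower. Proteasome subunits gave 0 of 36 calls with limma, with 1 higher and 3 lower at an unadjusted p under 0.05, although median scaling called 2 lower.

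Of 13 tested cathepsins, proteases of the lysosome, 4 rose. Ctsc measured 9.59, 8.87 and 8.91 at 96 h, against 7.75, 7.87 and 7.71 at 48 h (2.55-fold, 1.35 ± 0.14, limma adjusted p 3.9e-07). Ctsa, or protective protein, measured 11.47, 11.19 and 11.02 at 96 h, against 10.30, 10.19 and 9.82 at 48 h (2.17-fold, 1.12 ± 0.12, limma adjusted p 7.7e-07), and Ctsf and Ctsb rose by 0.75 and 0.33. Of 19 subunits of the vacuolar proton ATPase, which acidifies the lysosome, 3 rose, and median scaling called 1. Atp6v0e2 measured 10.73, 10.69 and 10.34 at 96 h, against 9.33, 9.05 and 9.09 at 48 h (2.70-fold, 1.43 ± 0.16, limma adjusted p 8.4e-07). The 2 tested macrophage markers lay near the array median at both times, as given above, and the source of the cathepsin rises was not tested.

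Among cytoskeletal families, 4 of 12 tubulins fell and 1 rose. Tuba1c measured 13.60, 14.09 and 14.37 at 96 h, against 14.85, 14.58 and 14.76 at 48 h (-0.71 ± 0.11, limma adjusted p 0.00013), and Tubb5, an abundant tubulin of dividing cells, fell by 0.32. Of 7 tropomodulins and leiomodins, which cap and nucleate thin filaments, Tmod4, Lmod3 and Lmod2 rose by 0.92, 0.64 and 0.63. Their pair differences were 1.52, 0.64 and 0.61 for Tmod4, 1.01, 0.64 and 0.27 for Lmod3 and 1.16, 0.67 and 0.05 for Lmod2. None of the 3 was called without replicate 1.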
